A study of Drosophila melanogaster with 4 samples.

Results

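The regions described here are the H3K23ac clusters of chromosome arm 2L of Drosophila melanogaster that start between positions 1 and 20000000 (FlyBase release 5). They were chosen by position alone, and 2L runs on to position 23011544 towards the centromere. A cluster is a region that the authors called as significantly enriched for H3K23ac, histone H3 acetylated at lysine 23, by chromatin immunoprecipitation and sequencing (ChIP-seq). ChIP replicate 1 had 1150 such clusters of 6267 in its whole list, ChIP replicate 2 had 1999 of 11757, and the authors' list for the replicate set of both had 3144 of 17999. These are 18.4%, 17.0% and 17.5% of the 3 lists.

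The series holds 2 H3K23ac ChIP libraries and 2 input libraries, the inputs being chromatin DNA sequenced without precipitation. All 4 libraries came from nuclei of wild-type larvae in the third instar, of the strain Oregon-R-modENCODE, and the labels give no treatment and no other allele. The labels name no dissected tissue, so nuclei of different larval cell types cannot be separated, and few nuclei with strong acetylation cannot be told apart from many with weak acetylation. Inputs and ChIP libraries with the same number belong together as control and test, per the labels, and no list of the inputs was used here. Depth is unknown because no read totals were at hand, and the number of clusters in a list is not an amount of H3K23ac. The antibody's specificity was not tested.

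Acetylation of histone tails neutralises the charge of lysines and is generally found in open, transcribed chromatin. In Drosophila the acetyltransferase Enok acts on lysine 23 of histone H3, and acetylation of this residue has been linked to genes induced by the moulting hormone ecdysone, which rises at the end of larval life. The left arm of the second chromosome is a large autosomal arm whose coordinates start at the telomere. The 20 Mb described here leave out the sequence towards the centromere. Release 5 genes were not used here, so clusters are named by position and not by gene.

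Clusters were spread over the whole stretch in both replicates, and replicate 2 had more of them, wider and closer together. Clusters covered 11.7% of the stretch (2.33 Mb) in replicate 1 and 25.2% (5.05 Mb) in replicate 2, a mean of 18.4 ± 9.601% (SD, n = 2). The replicate set covered 43.7%, or 8.74 Mb. Replicate 2 thus had 1.74 times as many clusters and 2.16 times as much covered sequence as replicate 1. Only 2 replicates were at hand, so no test compared them.

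A typical cluster was between 1 and 3 kb wide. In the middle of the ranking by width stood clusters of 1712 bp in replicate 1 and of 1959 bp in replicate 2, a mean of these medians of 1836 ± 175 bp (SD, n = 2). The median of the replicate set was 1912 bp. The middle 80% of clusters ran from 1355 to 3108 bp in replicate 1. For replicate 2 the limits were 1375 and 4478 bp, and for the set 1092 and 5499 bp. The replicate lists began at 1301 bp and the set at 1001 bp, a lower limit that each list also had over the whole series. Clusters under 2000 bp made up 66.6% of replicate 1's clusters and 51.2% of their bases. In replicate 2 they made up 52.2% of the clusters and 32.7% of the bases. At the other end, clusters of at least 8000 bp numbered 2 in replicate 1, 31 in replicate 2 and 127 in the set, where they held 17.2% of the bases.

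The gaps between neighbouring clusters were far more variable than the widths. Replicate 1 had a median gap of 5330 bp and replicate 2 one of 3074 bp (mean 4202 ± 1595 bp, SD, n = 2). That of the replicate set was 1499 bp. The middle 80% of gaps ran from 500.6 to 40119 bp in replicate 1. Limits were 304 and 17795 bp for replicate 2, and 149 and 9511 bp for the set. Short gaps were common, and 16.5% of gaps in replicate 1, 24.9% in replicate 2 and 40.3% in the set were 1000 bp or less. Most of replicate 1's uncovered sequence nevertheless lay in long gaps, since its 234 gaps over 20 kb held 72.02% of all gap bases. In replicate 2 there were 168 such gaps with 47.5% of gap bases, and in the set 67 with 18.8%.

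**Figure D1:**
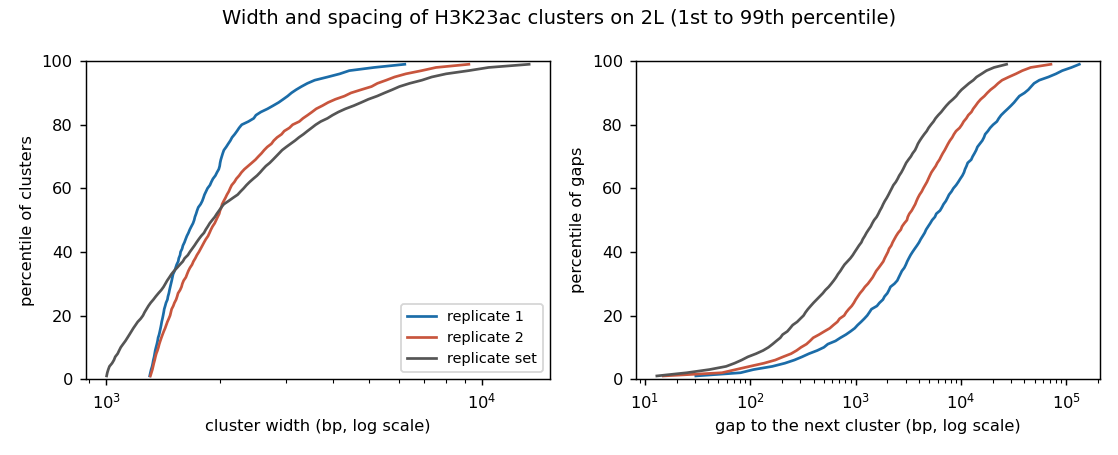
Cumulative distributions of cluster width (left) and of the gap to the next cluster (right) on 2L, 1 to 20 Mb, both in bp on a log axis, from the 1st to the 99th percentile of each list. The width curves start at 1301 bp in the replicates and 1001 bp in the set, and the gap curves are shifted against each other, with medians of 5330, 3074 and 1499 bp in replicate 1, replicate 2 and the set.

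The authors' score per cluster, whose scale is not stated in the sources used here, had almost the same median in both replicates. It was 0.544 in replicate 1 and 0.542 in replicate 2, a mean of 0.543 ± 0.0010 (SD, n = 2), and 0.381 in the replicate set. Within each list the wider clusters had the higher scores. In replicate 1 the median score was 0.514 for the 766 clusters under 2000 bp, 0.590 for the 330 from 2000 to 3999 bp and 0.626 for the 52 from 4000 to 7999 bp. In replicate 2 it was 0.484, 0.585 and 0.653 in these classes (1044, 707 and 217 clusters), and in the set 0.352, 0.400 and 0.447 (1676, 935 and 406). Spearman's rho between width and score was 0.479 over the 1150 clusters of replicate 1, 0.644 over the 1999 of replicate 2 and 0.425 over the 3144 of the set. Clusters of a list share a library, so these are descriptions across clusters and carry no p-value.

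Divided into 200 windows of 100 kb, the stretch alternated between sequence dense and sequence poor in clusters over short distances. The mean number of cluster starts per window was 5.75 in replicate 1 and 9.995 in replicate 2 (7.87 ± 3.00, SD, n = 2), and 15.7 for the replicate set. The middle 80% of windows held from 1 to 11 clusters in replicate 1, from 3 to 17 in replicate 2 and from 10 to 22 in the set. Coverage per window ranged from 0 to 43.4% in replicate 1, from 0 to 71.01% in replicate 2 and from 0 to 91.9% in the set, with medians of 9.49%, 22.9% and 42.9%. No cluster started in 15 windows of replicate 1, in 3 of replicate 2 and in 1 of the set. Neighbouring windows resembled each other only moderately. Spearman's rho of coverage between a window and the next was 0.340 in replicate 1, 0.470 in replicate 2 and 0.368 in the set, and between windows 5 apart it was 0.0836, 0.189 and 0.1202.

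**Figure D2:**
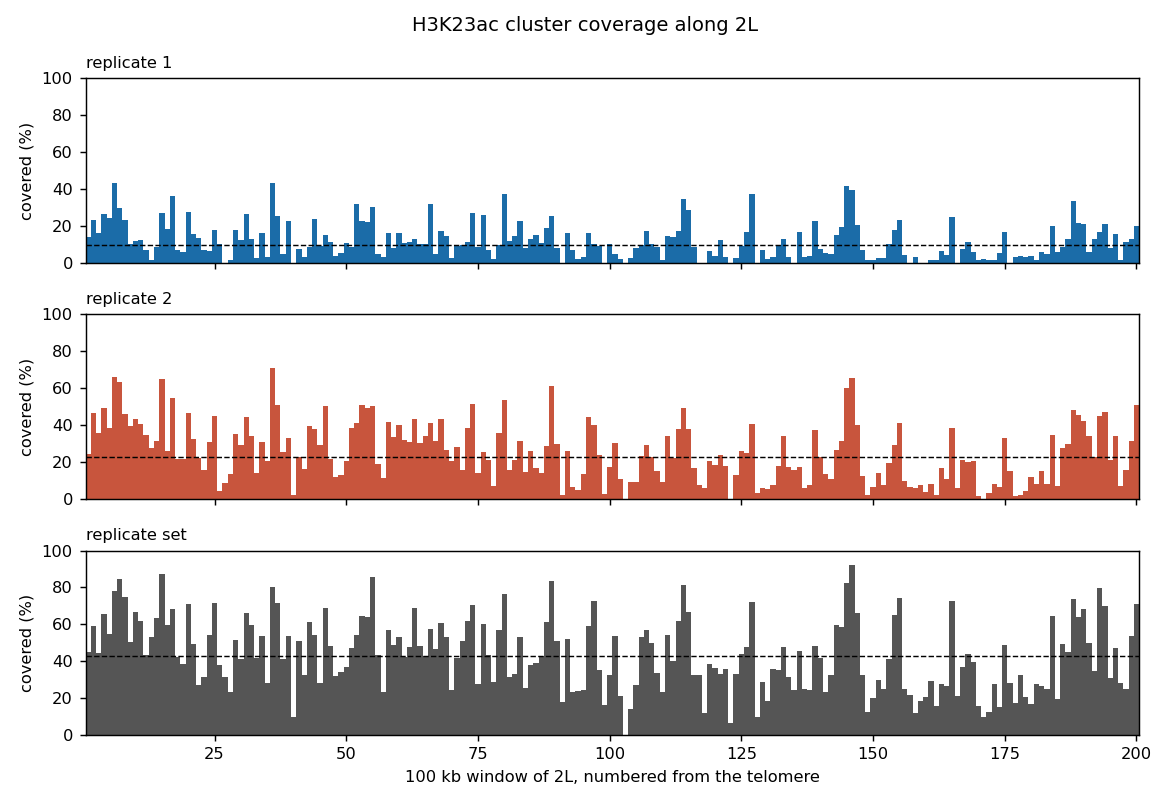
Share of each 100 kb window of 2L covered by H3K23ac clusters (vertical axis, %), with windows numbered from the telomere (horizontal axis), in replicate 1, replicate 2 and the replicate set from top to bottom. Dashed lines mark each list's median window, 9.49%, 22.9% and 42.9%, and 38 of the 50 most covered windows of replicate 1 are among the 50 most covered of replicate 2.

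Both replicates ranked the windows alike. Coverage of the 200 windows was correlated between the replicates with a rank correlation (Spearman's rho) of 0.859 and a Pearson coefficient of 0.855, which became 0.843 without the 2 windows farthest from replicate 1's median. The number of clusters per window had a rho of 0.801. The points are windows of the same 2 libraries and not independent samples. Of the 50 most covered windows of replicate 1, 38 were among the 50 most covered of replicate 2, and of its 50 least covered windows 36 were among the 50 least covered there. No window was among the 50 most covered of one replicate and the 50 least covered of the other. The median score of a window agreed less, with a rho of 0.276 over the 141 windows that held at least 3 clusters in each replicate.

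Replicate 2's longer list was a general feature of the stretch and not of a few places. Its coverage exceeded that of replicate 1 in 190 of 200 windows. Over all full windows of the 5 major arms the share was 93.6%, so 2L followed the background in this respect. The ratio of replicate 2 to replicate 1 had a median of 2.24 over the 185 windows that replicate 1 covered at all, and the middle 80% lay between 1.29 and 4.84. By megabase the ratio ran from 1.72 to 2.66. Of the 3.37 Mb covered in replicate 2 alone, 67.6% lay in clusters with no overlap with replicate 1 and 32.4% in clusters that did overlap it.

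In 8 windows replicate 1 covered more than replicate 2, and 6 of them were below the median window of both replicates. From 2500001 to 2600000, replicate 1 had 5 clusters covering 10.1% and replicate 2 had 3 covering 4.43%, whereas the replicate set had 19 covering 37.8%. From 7500001 to 7600000 the values were nearly equal, 26.03% in replicate 1 and 25.4% in replicate 2. In the other 6 windows neither replicate covered more than 6.80%.

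**Figure D3:**
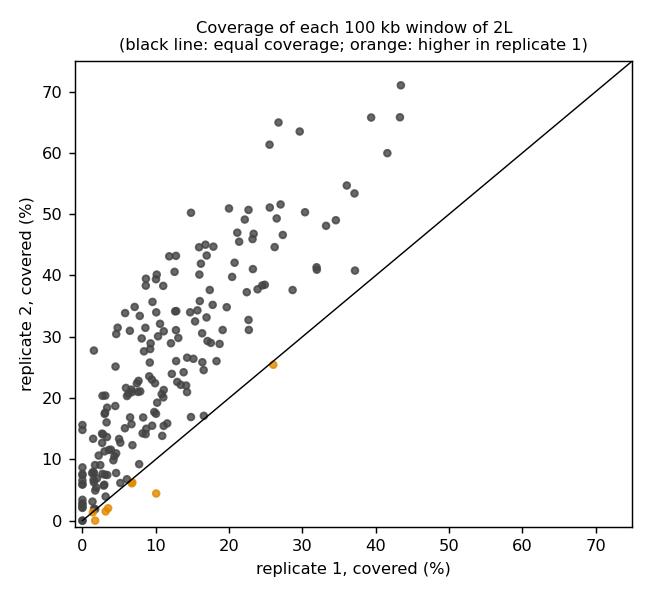
Coverage of each of the 200 windows of 100 kb on 2L in replicate 1 (horizontal axis, %) and replicate 2 (vertical axis, %), 1 point per window, with a line of equal coverage. Of the 200 windows, 190 lie above the line and 8 (orange) below it, and the highest point is at 43.4% and 71.01%.

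The 5 windows with the highest mean coverage of the replicates fell into 3 places along the arm. The window from 3500001 to 3600000 was covered to 43.4% in replicate 1 and 71.01% in replicate 2 (57.2 ± 19.5%, SD, n = 2), with 17 and 15 clusters. Near the telomere, the window from 500001 to 600000 reached 43.3% and 65.8%, and its neighbour from 600001 to 700000 reached 29.6% and 63.5%. Between 14400001 and 14600000, 2 adjoining windows reached 41.6% and 59.9%, and 39.4% and 65.8%, in replicates 1 and 2. All 5 windows were above the replicate medians in each replicate by more than 20 percentage points. The second of the adjoining pair, from 14500001, was the most covered window of the replicate set, where 9 clusters spanned 91.9% of it.

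Windows among the 50 most covered of both replicates formed 23 runs, of which 5 were at least 3 windows long. The longest reached from 300001 to 800000, where mean coverage was 29.4% in replicate 1, 52.6% in replicate 2 and 71.5% in the set. The run from 14400001 to 14700000 was denser, with 33.8%, 55.2% and 80.2% in these lists. The other runs lay from 5100001 to 5500000 (26.8% and 47.8% in replicates 1 and 2), from 11200001 to 11500000 (26.9% and 41.4%) and from 18700001 to 19000000 (25.1% and 45.2%).

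Sparse windows also formed runs, and the longest low run was longer than any high one. From 15600001 to 16200000, 6 consecutive windows were among the 50 least covered of both replicates. Replicate 1 had 4 clusters there covering 0.983%, replicate 2 had 21 covering 5.48%, and the replicate set had 78 covering 19.6%. From 16900001 to 17300000, replicate 1 had 4 clusters (1.52%) and replicate 2 had 8 (3.06%) in 4 windows. From 10100001 to 10400000, replicate 1 had 2 clusters (1.55%) and replicate 2 had 9 (6.56%) in 3 windows.

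The 5 longest stretches without a cluster in either replicate were between 106985 and 160642 bp long. The longest lay from 12182269 to 12342910 and was followed by 10196483 to 10323479 (126997 bp), 16953083 to 17074455 (121373 bp), 9812159 to 9924240 (112082 bp) and 17265699 to 17372683 (106985 bp). The replicate set had clusters in each of them. They numbered 10, 2, 10, 10 and 6 and covered 7.14%, 1.06%, 11.0%, 14.2% and 6.42% of these stretches in the order given. The window from 10200001 to 10300000 held no sequence of any cluster in any of the 3 lists. In all, 31 stretches of more than 50 kb were free of clusters in both replicates and added up to 2.49 Mb, or 12.4% of the 20 Mb.

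On the scale of megabases, coverage was highest next to the telomere and lowest in the megabase from 17000001 to 18000000. That megabase held 23 clusters of replicate 1, 40 of replicate 2 and 112 of the replicate set, covering 4.02%, 8.40% and 22.8%. The median megabase was covered to 12.6% in replicate 1, 25.99% in replicate 2 and 45.7% in the set. Highest and lowest megabase differed 5.53-fold in replicate 1, 5.39-fold in replicate 2 and 2.73-fold in the set. In the first 10 Mb coverage was 13.9% in replicate 1 and 30.8% in replicate 2, against 9.46% and 19.6% in the second 10 Mb. The megabases from 15000001 to 17000000 were covered to between 6.36% and 6.47% in replicate 1, and both to 14.4% in replicate 2.

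Within the telomeric megabase the coverage was uneven. The first window was covered to 13.8% in replicate 1 and 24.2% in replicate 2, both above the list's median window. Its first clusters began at position 31784 in replicate 1 and 7447 in replicate 2. Coverage was highest in the 6th and 7th windows, given above. In the 9th and 10th windows replicate 1 fell back to 10.03% and 11.8%, close to its median window of 9.49%, whereas replicate 2 still had 39.4% and 43.1%, above its median of 22.9%.

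What changed from sparse to dense windows in the replicates was mostly the number of clusters. The 200 windows were ordered by the mean coverage of both replicates and divided into 4 classes of 50, from the sparsest to the densest. In this order replicate 1 had 1.34, 3.92, 6.58 and 11.2 clusters per window, and replicate 2 had 3.52, 8.26, 12.3 and 15.9. Median width rose less over the same classes, with 1555, 1579, 1629 and 1848 bp for replicate 1. For replicate 2 the medians were 1561, 1832, 1976 and 2089 bp. The classes were cut from the values they describe, so the order of the numbers follows in part from the choice.

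The replicate set differed in this respect, since its cluster number varied less over windows than in the replicates. From the sparsest to the densest class it had 12.4, 15.9, 17.4 and 17.2 clusters per window, with median widths of 1434, 1779, 2095 and 2700 bp. The coefficient of variation of cluster number over the 200 windows was 0.750 in replicate 1, 0.523 in replicate 2 and 0.289 in the set. Across windows with at least 3 clusters, coverage was correlated with the number of clusters at a rho of 0.932 in replicate 1 (141 windows), 0.913 in replicate 2 (185) and 0.596 in the set (199). With the window's median width, rho was 0.384, 0.579 and 0.742 in the same lists.

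Score followed density only weakly. Spearman's rho between a window's coverage and its median score was 0.265 in replicate 1, 0.257 in replicate 2 and 0.322 in the set, over the same windows. Over the classes from sparsest to densest, median score was 0.539, 0.530, 0.535 and 0.552 in replicate 1, and 0.540, 0.528, 0.536 and 0.554 in replicate 2. In the set it was 0.381, 0.366, 0.380 and 0.401. The few clusters of sparse sequence thus scored about as high as those of dense sequence in the same list.

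**Figure D4:**
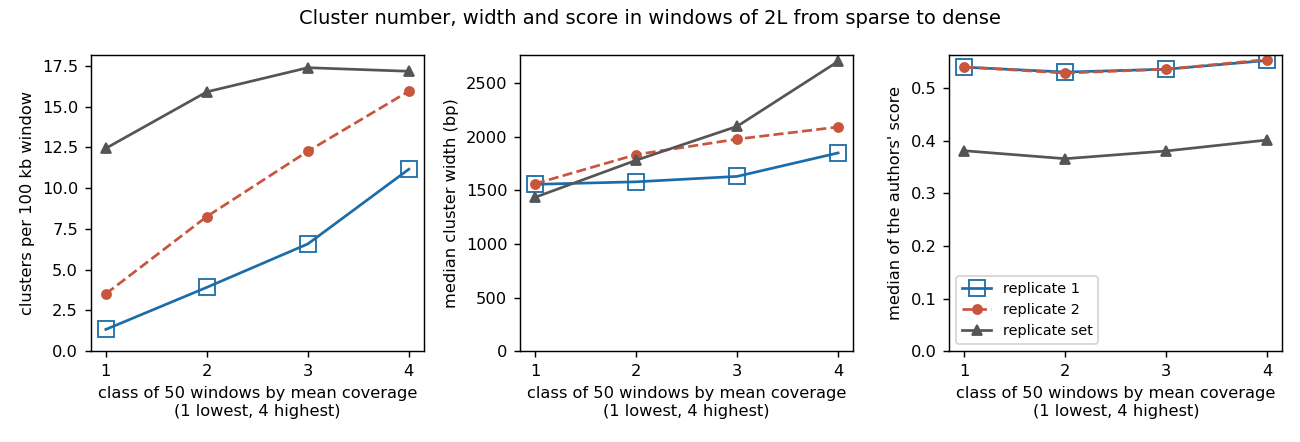
Mean number of clusters per 100 kb window (left), median cluster width in bp (middle) and median of the authors' score (right) in 4 classes of 50 windows of 2L, ordered by mean coverage of the replicates from lowest (1) to highest (4). In replicate 1 the number per window is 1.34 in the lowest class and 11.2 in the highest, in the set 12.4 and 17.2, and the score curves of both replicates overlie each other.

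Most clusters of replicate 1 touched replicate 2's clusters, but most did not match them closely in extent. On 2L, 925 of 1150 clusters of replicate 1 (80.4%, exact 95% binomial interval 78.0 to 82.7%) shared at least 1 bp with a cluster of replicate 2, and the whole series gave 81.6%. Conversely, 850 of 1999 clusters of replicate 2 (42.5%, interval 40.3 to 44.7%) overlapped replicate 1, against 39.9% in the whole series. The shares on 2L were thus close to those of the series. They count any contact, however short. Where the shared part had to reach 50% of both clusters, support on 2L was 42.5% for replicate 1 and 24.5% for replicate 2. At this stricter overlap no whole-series share was at hand for comparison. By bases, replicate 2 covered 71.8% of the sequence within replicate 1's clusters and 19.1% of the sequence outside them. Replicate 1 covered 33.2% of the sequence within replicate 2's clusters and 4.40% outside. The intervals cover counting error only.

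Support by the other replicate was higher in dense windows, where the other list also covered more sequence. In the sparsest class of windows, where replicate 2 covered 6.18% of the sequence, 34.3% of replicate 1's 67 clusters overlapped replicate 2. In the following classes the share was 63.8%, 80.9% and 91.6%, with replicate 2 covering 17.8%, 30.4% and 46.6%. For replicate 2 the shares were 13.1%, 29.3%, 40.0% and 57.8%, with replicate 1 covering 2.22%, 7.04%, 12.4% and 24.97%. By megabase, support of replicate 1 was lowest from 17000001 to 18000000, at 52.2% of 23 clusters, and highest in the telomeric megabase, at 93.3% of its clusters. A cluster meets another list more often where that list covers more, and the part of this in the differences was not tested.

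Wide clusters were found in both replicates more often than narrow ones. In replicate 1 support was 73.6% for clusters under 2000 bp and 93.3% for those of 2000 to 3999 bp. From 4000 to 7999 bp 51 of 52 were supported, and so were both clusters of at least 8000 bp. In replicate 2 the classes from narrow to wide were supported to 26.6%, 50.9%, 83.9% and 96.8%, the last being 30 of 31 clusters. In the replicate set 1.55% of the clusters under 2000 bp overlapped both replicates, and 94.5% of the 127 clusters of at least 8000 bp did so. Width alone makes an overlap more likely, and its part was not tested.

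**Figure D5:**
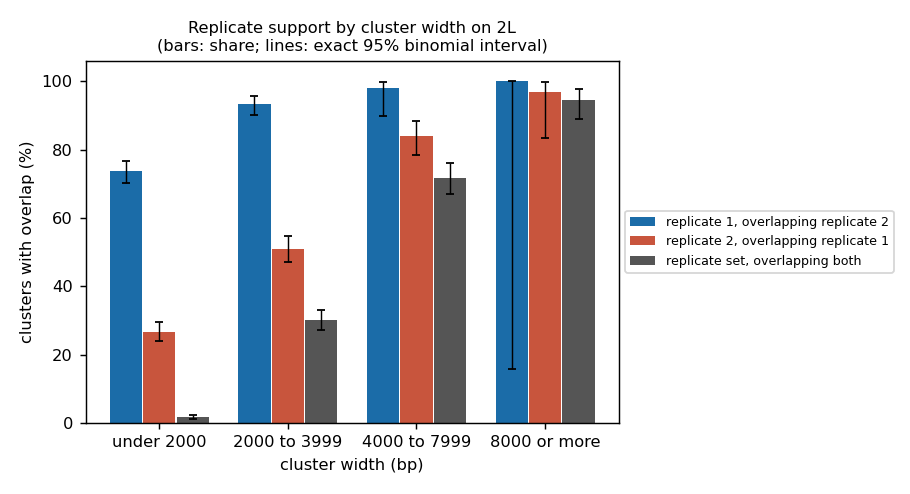
Share of clusters on 2L that overlap the other replicate, or both replicates for the set (vertical axis, %), by cluster width (horizontal axis, bp), with exact 95% binomial intervals as lines. In replicate 2 the share is 26.6% in the narrowest class and 96.8% in the widest, and the widest class of replicate 1 holds only 2 clusters.

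Clusters without a counterpart were narrower, and most of those of replicate 1 lay within 5000 bp of a cluster of replicate 2. The 225 unsupported clusters of replicate 1 were 1515 bp wide and scored 0.528 at the median, against 1798 bp and 0.547 for the 925 supported ones. The 1149 unsupported clusters of replicate 2 reached 1728 bp and 0.524, against 2475 bp and 0.570 for the 850 supported. From an unsupported cluster of replicate 1 the nearest cluster of replicate 2 was a median of 1904 bp away, and 75.1% had one within 5000 bp. From replicate 2 the median distance to replicate 1 was 5285 bp, with 48.6% within 5000 bp. The shorter list has fewer clusters to be near, and whether these distances differ from those of other uncovered sequence was not tested.

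A cluster of one replicate met exactly 1 of the other in 617 pairs. The pairs were chosen for overlapping, which itself limits how far apart they can lie. Their starts differed by a median of 461 bp, their ends by 475 bp and their centres by 398 bp, and the centre shift was under 1425 bp for 90% of pairs. The cluster of replicate 2 was the wider one in 470 pairs (76.2%), with a median ratio of widths of 1.27. Scores and widths of the pairs were only weakly related, with a rho of 0.285 for score and 0.316 for width, as descriptions across pairs. Of the 925 clusters of replicate 1 that overlapped replicate 2, 77 met several of its clusters. Conversely, 127 of the 850 overlapping clusters of replicate 2 met several of replicate 1.

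Sequence called in both replicates was split into 1003 stretches, typically of 1491 bp (median), that added up to 1.67 Mb, or 8.37% of the 20 Mb. They began in 165 of the 200 windows. The widest ran from 5126096 to 5141292 (15197 bp) and was 1 cluster in each replicate, with scores of 0.627 in replicate 1 and 0.838 in replicate 2. The next were 1669869 to 1679097 (9229 bp, scores 0.740 and 0.768), 6538840 to 6546778 (7939 bp, 0.664 and 0.693), 1406234 to 1413291 (7058 bp, 0.529 and 0.723) and 1658257 to 1665148 (6892 bp, 0.689 and 0.772). Apart from the 0.529 of replicate 1, each of these scores was above the median of its own list, 0.544 in replicate 1 and 0.542 in replicate 2. The stretches were chosen by width, and wider clusters had higher scores in each list. The second and the fifth stretch lie less than 5000 bp apart, within the megabase next to the telomeric one.

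The widest cluster of replicate 1 (5126096 to 5141858, 15763 bp, score 0.627) was the one behind the widest shared stretch, and replicate 2 covered 96.8% of it. The widest of replicate 2 (4485466 to 4506019, 20554 bp, score 0.685) was covered to 39.1% by 2 clusters of replicate 1. The highest-scoring cluster of replicate 1 (11377840 to 11379248, score 0.822) was only 1409 bp wide and lay wholly within a cluster of replicate 2 with a score of 0.744. That of replicate 2 (11436073 to 11441710, 5638 bp, score 0.953) was covered to 74.7% by a cluster of replicate 1 with a score of 0.800. Both highest-scoring clusters lie in the dense run from 11200001 to 11500000.

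The replicate set held nearly all that either replicate held and added sequence of its own. It overlapped 1139 of the 1150 clusters of replicate 1 (99.04%) and 1983 of the 1999 of replicate 2 (99.2%). Of the bases covered in both replicates 99.99% were in the set, as were 93.8% of those in replicate 1 alone, 97.0% of those in replicate 2 alone and 22.2% of those in neither. Of the set's own bases 19.1% were covered in both replicates, 7.07% in replicate 1 alone, 37.4% in replicate 2 alone and 36.4%, or 3.18 Mb, in neither. The set was made from the same libraries, so its overlap with the replicates is partly built in. Whole-series values of these shares were not at hand, so they are not shown to be particular to 2L.

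Counted by clusters, 718 of the set's 3144 clusters (22.8%, interval 21.4 to 24.3%) overlapped both replicates, against 21.8% in the whole series. At least 1 replicate was met by 1874 (59.6%), against 60.7% in the series, and neither by 1270 (40.4%), against 39.3%. Clusters found in both were typically 4563 bp wide with a score of 0.457 (medians). The 977 found in replicate 2 alone had 2177 bp and 0.377, and the 179 found in replicate 1 alone had 1979 bp and 0.350. The 1270 in neither replicate were 1283 bp wide at the median and scored 0.358. In all, 739 clusters of the set were narrower than the 1301 bp at which the replicate lists begin, and 669 of them overlapped neither replicate. Among the 2405 at least that wide, 601 (24.99%) overlapped neither. Whole-series clusters were not split by width in this way, so these counts are not shown to be particular to 2L.

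The set's clusters without a counterpart were most frequent where the replicates had least. From the sparsest to the densest class of windows there were 8.30, 7.14, 5.74 and 4.22 of them per window. They were 66.7% of the set's clusters in the sparsest class and 24.6% in the densest. These classes were cut by the replicates' coverage, which leaves more sequence free of both replicates in sparse windows.

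The 5 widest clusters of the set each overlapped several clusters of each replicate. The first in width (5119120 to 5145358, 26239 bp, score 0.630) overlapped 3 clusters of each replicate. It was followed by 1051866 to 1077174 (25309 bp, score 0.572) and 5377042 to 5401808 (24767 bp, score 0.489), each overlapping 4 clusters of each replicate. From 3581262 to 3604070 (22809 bp, score 0.550) the set's cluster overlapped 5 clusters of replicate 1 and 4 of replicate 2, and from 11362812 to 11383688 (20877 bp, score 0.605) it overlapped 7 and 3. Replicate 1 covered between 47.1% and 79.4% of these 5 clusters, and replicate 2 between 68.7% and 98.1%.

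The 5 highest-scoring clusters of the set were narrow, and 4 of them overlapped neither replicate. The highest lay from 4540774 to 4542432 (1659 bp) with a score of 2.03. The next 2, from 1805962 to 1807002 and from 10946850 to 10947850, had the same score of 0.968 and widths of 1041 and 1001 bp. A further 2, from 15838226 to 15839308 and from 16153528 to 16154588, had the same score of 0.897 and widths of 1083 and 1061 bp. The first of this pair was the one with support, from a cluster of replicate 2 that covered 66.4% of it with a score of 0.674. The region with the highest score of the set thus lay where neither replicate had a cluster.

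Set beside the first 20 Mb of other arms, 2L was close to 3L and 3R. Coverage was 11.7% on 2L, 11.0% on 3L, 12.9% on 3R and 5.29% on X in replicate 1. In replicate 2 it was 25.2% on 2L, 24.6% on 3L, 28.5% on 3R and 17.9% on X. The ratio of 2L to 3L was 1.04 ± 0.0238, that of 2L to 3R 0.894 ± 0.0127 and that of 2L to X 1.81 ± 0.560 (SD, n = 2 replicates). These stretches do not stand in the same place on their arms, since the coordinates of 3R start at the centromere and those of 2L, 3L and X at the telomere. Differences between arms were not tested, since an exact sign-flip permutation test over 2 replicates cannot give a two-sided p below 0.5.

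In the shape of their clusters 2L, 3L and 3R also lay close together. Median width in replicate 2 was 1959 bp on 2L, 1871 bp on 3L and 1966 bp on 3R, and the median gap 3074, 3227 and 2658 bp on these arms. The share of replicate 1's clusters that touched replicate 2 was 80.4% on 2L, 78.9% on 3L, 82.6% on 3R and 71.4% on X. Window coverage was correlated between the replicates at a rho of 0.859 on 2L, 0.797 on 3L, 0.856 on 3R and 0.747 on X, over 200 windows each. Windows in which neither replicate had a cluster start numbered 2 on 2L, 1 on 3L, 0 on 3R and 6 on X. The coefficient of variation of the set's cluster number over windows was 0.289 on 2L, 0.299 on 3L, 0.290 on 3R and 0.423 on X.

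Beyond position 20000000 clusters continued for 2.11 to 2.16 Mb in the 3 lists, and the last stretch of the arm held none. Coverage of the remaining 3.01 Mb was 8.33% in replicate 1, 15.0% in replicate 2 and 26.9% in the set, with 117, 188 and 314 clusters. Median scores there were 0.531, 0.511 and 0.368 in these lists, and the last clusters ended between positions 22107511 and 22155696. Counted only up to the last cluster of each list, coverage beyond position 20000000 was 11.9% in replicate 1, 21.01% in replicate 2 and 37.5% in the set, with 55.5, 87.6 and 146 clusters per Mb.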

How the data were processed

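Libraries were grouped by their titles. The submitters' processing notes name Bowtie 0.12.7 as a tool. Per the file headers, the 3 lists hold enriched regions on FlyBase release 5 coordinates. Which caller and threshold made them, and how the replicates were combined, is not stated. The score per cluster is as deposited by the authors, and it served for description, ranking and filtering inside a list. Its medians and ranks were also compared between lists, although it is not stated whether the lists share a scale.

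All values come from Python 3.11.15 with numpy 2.4.6, scipy 1.17.1 and matplotlib 3.10.9. Covered sequence is the union of clusters, cut at position 20000000 and at window ends. A cluster belongs to the window of its start, a gap is the number of bases between neighbouring clusters of a list, and overlap means at least 1 shared bp. Shares have exact (Clopper-Pearson) 95% intervals for counting error. Depth is unknown. All 9 checks of overlap, coverage, gaps, windows and joining on simulated clusters gave back the planted answer. No simulated cluster crossed a window end or position 20000000, so the cutting there was not checked, and neither were the intervals. The labels do not state whether the replicates are separate cultures, so their spread may be technical.

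The arm, the windows and the measures were chosen with earlier results of these data known, while clusters on the arm were taken by position alone. Regions were named by rule: the 5 windows of highest mean coverage, the 5 longest stretches without a cluster in either replicate, the 5 widest called in both, the 5 widest and 5 highest-scoring clusters of the set, and the widest and highest-scoring of each replicate. Runs of windows, single megabases, the telomeric windows and windows covered more in replicate 1 were chosen after their values were seen. Genes and sequences of release 5 were not used here.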

Additional observations from a re-analysis of the deposited data

How the results depend on the processing

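Leaving out a replicate left the other's value, from 5.75 to 9.995 clusters per window, 11.7 to 25.2% coverage, 1712 to 1959 bp width, 3074 to 5330 bp gap and a 2L to 3L ratio of 1.03 to 1.06. With only the better-scored 50% of each list, the mean of the replicates was 3.71 clusters per window, 10.9% coverage, 2313 bp width, 10403 bp gap, a score of 0.605 and a 2L to 3L ratio of 1.07, support was 64.5% for replicate 1, 33.3% for replicate 2 and 19.6% of the set in both, and the window rho was 0.736. With clusters joined over gaps of up to 1000 bp, width was 2029 bp and the gap 6307 bp. With a reciprocal overlap of at least 50%, support was 42.5% for replicate 1, 24.5% for replicate 2 and 7.95% of the set in both. At an overlap of at least 1 bp, 29.9% of the set's clusters at least 1301 bp wide overlapped both replicates, an alternative chosen after seeing the data. The window rho was 0.821 with windows of 50 kb and 0.874 with 200 kb. Windows without a cluster start in either replicate, 2 in the main count, numbered 5 with the better-scored 50%, 17 at 50 kb, 0 at 200 kb and 0 with windows shifted by 50 kb. No value changed by more than the spread between replicates, the counting interval of a share or 0.01 in rho without the first 1 Mb. The better-scored 50% keeps fewer clusters and joining makes fewer and wider ones, by construction, and other causes of these moves were not tested. No paired analysis was possible because no result comes from a test between ChIP and input libraries, which are the groups that share replicate numbers; the ratios between arms were formed within each replicate.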

Other observations

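Start and end were both even numbers for 3144 of 3144 clusters of the replicate set, but for 302 of 1150 clusters of replicate 1 (26.3%) and 470 of 1999 of replicate 2 (23.5%). The whole lists had the same form, with 100% of clusters in the set, 25.9% in replicate 1 and 24.4% in replicate 2, so it is not particular to 2L. Exactly equal scores were frequent. In the set 549 clusters (17.5%) shared their score with another cluster of the list on this stretch, as did 265 (23.04%) in replicate 1 and 446 (22.3%) in replicate 2. Equal scores were not counted over the whole lists, so they are not shown to be particular to 2L. The window from 2500001 to 2600000 held 5 clusters of replicate 1, 3 of replicate 2 and 19 of the set. Few clusters in the replicates beside many in the set were common in sparse windows. The sparsest class of windows held a mean of 1.34, 3.52 and 12.4 clusters per window in these lists.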
